A study of Mus musculus with 2 samples.

Results

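The genes described here are the 3 genes of the amyloid precursor family, App, Aplp1 and Aplp2, together with 5 genes whose products process the precursor or are processed in a related way, Itm2b, Itm2c, Bace1, Psenen and Ncstn. They are 8 of the 32285 genes in the deposited count matrices. They were chosen because App stood higher in retinal pigment epithelium (RPE) of the knockout library, so the values of App in RPE-like cells are given as a description. The samples were 2 droplet single-cell RNA libraries of RPE and choroid from mice aged 10 weeks, 1 library per genotype. The Tsc1 RPE KO mice carried the floxed Tsc1 allele Tsc1tm1Djk/J together with Best-Cre, a transgene said in the labels to act only in RPE, and the Tsc1 flox mice carried the floxed allele without Cre. The product of Tsc1 belongs to the complex that holds back the growth kinase mTORC1, and the series title concerns hyperactive mTORC1 in the RPE. Each library pooled 1 male and 1 female, the neural retina had been removed, and live cells had been sorted. With 1 library per genotype there was no replicate and no test between genotypes, and every interval below covers counting error only.

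The amyloid precursor protein is a membrane protein that alpha-secretase or beta-secretase cuts outside the membrane and gamma-secretase then cuts within it. Cutting by beta- and then gamma-secretase releases the amyloid beta peptide, whereas the paralogs Aplp1 and Aplp2 are cut by the same enzymes but lack that peptide. Bace1 encodes the main beta-secretase of neurons, and Psenen and Ncstn encode subunits of gamma-secretase. Itm2b and Itm2c encode BRI proteins, membrane proteins that bind the precursor, and in humans mutations of ITM2B cause familial dementias. In the eye, amyloid beta is known as a component of drusen, the deposits that form beneath the RPE in age-related macular degeneration.

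The stretches before the start sites of App, Aplp2 and Itm2b are shown because these 3 genes carried most of the members' UMIs (unique molecular identifiers, 1 per captured RNA molecule) in RPE-like cells. Each is the 250 bases before the RefSeq start in GRCm38.p6, 5′ to 3′ on the gene's strand, which is the minus strand for all 3, at chr16:85173708-85173957 for App, chr9:31211849-31212098 for Aplp2 and chr14:73385290-73385539 for Itm2b. Capitals mark the GC-box letters GGGCGG or their reverse complement CCGCCC.
App: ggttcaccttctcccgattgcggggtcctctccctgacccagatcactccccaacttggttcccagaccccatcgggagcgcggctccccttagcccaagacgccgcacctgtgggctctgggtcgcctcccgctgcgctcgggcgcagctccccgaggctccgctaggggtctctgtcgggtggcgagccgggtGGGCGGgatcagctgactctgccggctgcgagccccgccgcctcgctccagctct
Aplp2: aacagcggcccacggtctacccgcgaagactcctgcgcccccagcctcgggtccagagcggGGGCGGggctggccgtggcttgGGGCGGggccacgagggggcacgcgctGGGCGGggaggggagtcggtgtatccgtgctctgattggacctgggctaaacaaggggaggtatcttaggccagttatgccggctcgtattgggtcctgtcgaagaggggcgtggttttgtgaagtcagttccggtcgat
Itm2b: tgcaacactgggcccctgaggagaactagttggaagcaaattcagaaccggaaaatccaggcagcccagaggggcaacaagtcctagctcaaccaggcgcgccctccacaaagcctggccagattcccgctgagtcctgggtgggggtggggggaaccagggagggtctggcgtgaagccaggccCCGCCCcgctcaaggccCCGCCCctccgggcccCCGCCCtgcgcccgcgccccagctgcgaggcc

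The RefSeq table held a promoter for 7 of the 8 members, all but Bace1. GGGCGG, searched on both strands, occurred 1 time in the App stretch, 3 times in that of Aplp2, 3 times in that of Itm2b and 1 time in that of Aplp1, and 32.7% of all 32851 promoters held it. The E-box CACGTG, a palindrome that overlaps none of these letters, occurred in 0 of the members' stretches and in 6.02% of all promoters, and TATAAA likewise in 0 and in 12.4%. G and C made up 70.8% of the bases for App, 66.4% for Aplp2 and 68.8% for Itm2b, against a median of 52.4% over all promoters. In the GENCODE annotation of the same build App starts inside the stretch shown, at position 85173766 of chromosome 16, so the choice of start site moves the window. These matches describe letters only.

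The genes lie on 5 chromosomes. In GENCODE M21 on mm10, App spans 84949685 to 85173766 on the minus strand of chromosome 16, Aplp1 spans 30434982 to 30445535 on the minus strand of chromosome 7, and Aplp2 spans 31149557 to 31211815 on the minus strand of chromosome 9. Itm2b spans 73362226 to 73385289 on the minus strand of chromosome 14 and Itm2c 85894281 to 85908675 on the plus strand of chromosome 1. Bace1 spans 45838580 to 45864399 on the plus strand of chromosome 9, Psenen 30561863 to 30563627 on the minus strand of chromosome 7 and Ncstn 172066013 to 172082795 on the minus strand of chromosome 1. No member overlaps another gene of the annotation on its own strand. Genes on the opposite strand overlap App (5 predicted genes), Bace1 (Rnf214 among them), Psenen (U2af1l4) and Ncstn (Copa).

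There were 1853 cells in Tsc1 RPE KO (median depth 4617 UMIs) and 1524 in Tsc1 flox (median depth 4525 UMIs). Clustering and marker lists gave 9 cell classes that are used here, and names ending in "-like" are these rebuilt classes. RPE-like cells were 46 of the Tsc1 RPE KO cells (2.48%) and 12 of the Tsc1 flox cells (0.787%), with median depths of 2199.5 and 2582 UMIs and summed depths of 119983 and 32094 UMIs. Their leading genes were Ttr, Ptgds, Rgr and Rdh5, and 11 and 10 of 12 RPE markers had a UMI in the Tsc1 RPE KO and Tsc1 flox sums. No UMI of Best1, a channel gene known from RPE, or of Tsc1 itself was found in RPE-like cells of either library (0 each), so the deletion could not be checked there. The called cells of both libraries shared 2 barcodes.

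App, the precursor itself, stood higher in summed UMIs of RPE-like cells of the Tsc1 RPE KO library, the contrast on which the members were chosen. It had 146 UMIs in the Tsc1 RPE KO sum and 10 in the Tsc1 flox sum. Scaled per 1000000 UMIs of the class (CPM), that was 1217 CPM (95% exact Poisson interval 1027 to 1431) in Tsc1 RPE KO, against 312 CPM (149 to 573) in Tsc1 flox. The ratio was 3.91 (95% exact conditional binomial interval 2.06 to 8.32). Among the 386 genes with at least 50 UMIs over both libraries in this class, 10 had a higher ratio. Because the members were chosen on this contrast, that rank is given without a reading.

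Single cells carried few App molecules. In Tsc1 RPE KO a UMI of App was seen in 33 of 46 RPE-like cells (71.7%, exact interval 56.5 to 84.0%), with 0, 2 and 24 UMIs as the lowest, median and highest count per cell. In Tsc1 flox it was seen in 5 of 12 (41.7%, 15.2 to 72.3%), with 0, 0 and 3 as the lowest, median and highest. The ranges overlap: 13 cells of Tsc1 RPE KO and 7 of Tsc1 flox had 0 App UMIs, while 19 cells of Tsc1 RPE KO and 1 of Tsc1 flox had 3 or more. The cell with 24 UMIs held 16.4% of the Tsc1 RPE KO total, and the ratio without the top cell of each library was 4.41 (2.08 to 11.2). With every cell reduced at random to 1000 UMIs, 54.3% (39.0 to 69.1%) of the Tsc1 RPE KO cells and 33.3% (9.92 to 65.1%) of the Tsc1 flox cells had an App UMI, and the ratio of the thinned sums was 2.30 (0.991 to 6.56). In rod-like cells, whose share serves as background, 3 of 176 cells of Tsc1 RPE KO (1.70%, median depth 2798 UMIs) and 0 of 42 of Tsc1 flox (median depth 2074.5 UMIs, a zero that allows up to 7.14% of such cells to hold a UMI at this depth and sets no limit on expression) had an App UMI.

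**Figure D1:**
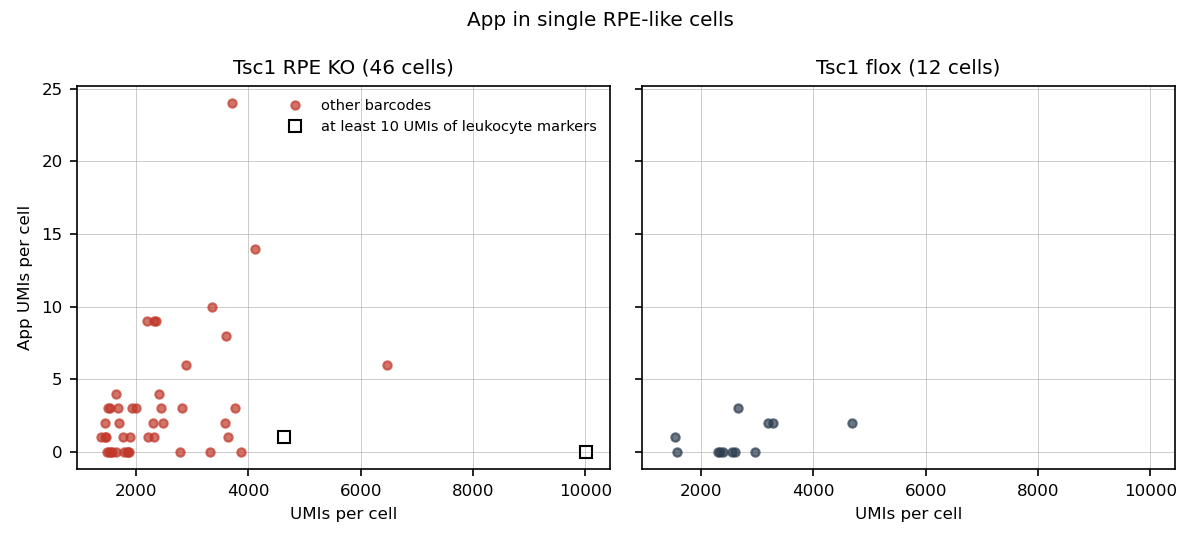
App UMIs (y axis) against all UMIs (x axis) of each RPE-like cell, with the 46 cells of Tsc1 RPE KO on the left and the 12 of Tsc1 flox on the right. App reached 24 UMIs in a Tsc1 RPE KO cell and at most 3 in Tsc1 flox, and the 2 open squares are Tsc1 RPE KO barcodes with at least 10 UMIs of leukocyte markers.

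The App difference depended on the depth of the barcodes counted as cells. The UMI minimum was 1374 for Tsc1 RPE KO and 1487 for Tsc1 flox. When barcodes down to 500 UMIs were clustered in the same way, and barcodes with leukocyte RNA left out, those with 500 to under 1000 UMIs had 2030.0 CPM of App (1481 to 2716, 29 cells) in Tsc1 RPE KO and 1389 CPM (871 to 2103, 20 cells) in Tsc1 flox. Those from 1000 UMIs up to the minimum had 1088 CPM (697 to 1619.6, 19 cells) in Tsc1 RPE KO and 1140.4 CPM (623 to 1913, 10 cells) in Tsc1 flox. Above the minimum App had 1376 CPM (1162 to 1619.6, 44 cells) in Tsc1 RPE KO and 312 CPM (12 cells) in Tsc1 flox. The lowest of the 6 values is thus that of the 12 deepest Tsc1 flox barcodes, and its interval lies below the other 5 intervals. The ratio was 2.27 (1.48 to 3.65) with all barcodes of at least 1000 UMIs, 1.76 (1.27 to 2.47) with all of at least 500 UMIs, and 1.22 (0.803 to 1.88) in the barcodes below the minimum taken alone, a split that was chosen after the data had been seen.

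**Figure D2:**
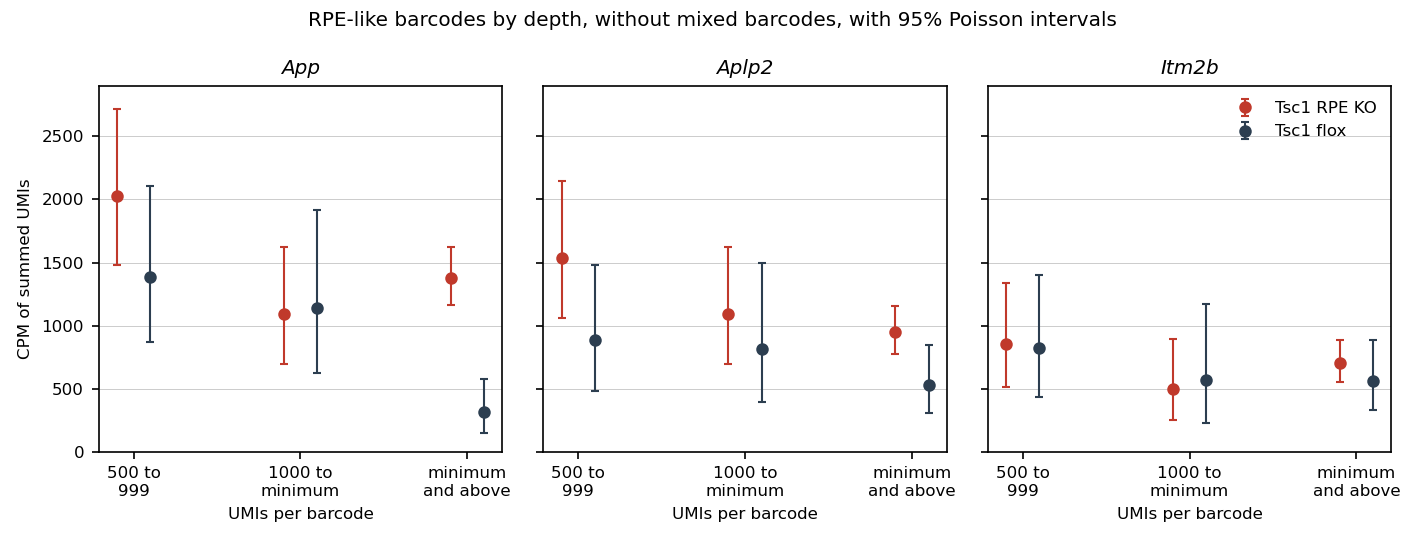
CPM of App, Aplp2 and Itm2b (y axis, from 0) in RPE-like barcodes of 3 depth bands (x axis), Tsc1 RPE KO in red left of Tsc1 flox in dark blue, with 95% Poisson intervals. App of Tsc1 flox is 1389, 1140.4 and 312 CPM from the shallowest to the deepest band, while App of Tsc1 RPE KO is 2030.0, 1088 and 1376 CPM.

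Other features of the RPE-like cells also differed between the libraries. Mitochondrial transcripts were 2.71% of the summed UMIs in Tsc1 RPE KO and 1.53% in Tsc1 flox. RPE markers did not move together: Rgr had 8335 CPM in Tsc1 RPE KO and 19287 CPM in Tsc1 flox, and Rpe65 had 1625 CPM in Tsc1 RPE KO and 6201 CPM in Tsc1 flox. Lrat had 1617 CPM in Tsc1 RPE KO and 748 CPM in Tsc1 flox, and Ttr had 103673 CPM in Tsc1 RPE KO and 102106 CPM in Tsc1 flox. The summed list of 12 RPE markers had 125993 CPM (54 to 1093 UMIs per cell) in Tsc1 RPE KO and 139964 CPM (178 to 756 UMIs per cell) in Tsc1 flox. The part of these differences in the App result was not tested.

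Markers of endothelial cells and fibroblasts, which carry much App, were at or near 0 in the RPE-like cells. The 8 endothelial markers summed to 6 UMIs in Tsc1 RPE KO and 0 in Tsc1 flox, with Cdh5, Cldn5, Kdr, Flt1 and Emcn at 0 in both, and the 8 fibroblast markers summed to 1 and 0 UMIs, with Col1a1, Col1a2 and Col3a1 at 0. The macrophage list was at 0 in both libraries. The 7 pericyte or smooth muscle markers summed to 15 UMIs (125 CPM, 0 to 4 per cell) in Tsc1 RPE KO and 7 UMIs (218 CPM, 0 to 5 per cell) in Tsc1 flox, with Rgs5, Myh11, Tagln and Des at 0 in both. The 7 melanocyte markers, some of which RPE also expresses, summed to 309 UMIs (2575 CPM, 0 to 45 per cell) in Tsc1 RPE KO and 45 UMIs (1402 CPM, 1 to 14 per cell) in Tsc1 flox. Most of these were Dct, a melanin synthesis gene, with 263 UMIs in Tsc1 RPE KO and 32 in Tsc1 flox, while Kit was at 0 in both, and their part in the App result was not tested. The 10 rod markers summed to 18 UMIs (150 CPM) in Tsc1 RPE KO and 2 UMIs (62.3 CPM) in Tsc1 flox. In Tsc1 RPE KO 2 barcodes held 37 and 75 UMIs of leukocyte markers, against at most 4 in any other RPE-like cell, and made up 12.2% of the class's UMIs. They held 1 App UMI, and without them the App ratio was 4.42 (2.33 to 9.41). Free RNA, taken from barcodes with 10 to 100 UMIs, had 159 CPM of App in Tsc1 RPE KO and 134 CPM in Tsc1 flox, and its estimated share of the RPE-like UMIs was 2.49% and 2.35%. After subtraction of that share the App ratio was 3.94.

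The paralogs were measured less firmly. Aplp2, which is expressed in most tissues, had 100 UMIs and 833 CPM (678 to 1014) in Tsc1 RPE KO, against 17 UMIs and 529.7 CPM (309 to 848) in Tsc1 flox. The ratio was 1.57 (0.935 to 2.81), and its interval includes 1. Per cell the lowest, median and highest counts of Aplp2 were 0, 1 and 11 UMIs in Tsc1 RPE KO and 0, 1 and 5 in Tsc1 flox. Unlike App, Aplp2 had a similar ratio in barcodes below the minimum, 1.54 (0.940 to 2.59), and without the 2 mixed barcodes it was 1.79 (1.07 to 3.20). Aplp1, the paralog known mainly from neurons, had 5 UMIs in Tsc1 RPE KO and 2 in Tsc1 flox, too few for a ratio.

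Within the family, App made up 146 of 251 UMIs (58.2%, exact interval 51.8 to 64.3%) of App, Aplp1 and Aplp2 in RPE-like cells of Tsc1 RPE KO, and 10 of 29 (34.5%, 17.9 to 54.3%) in Tsc1 flox. These intervals overlap. Aplp2 was the larger part in Tsc1 flox, with 58.6% (38.9 to 76.5%), and 39.8% (33.7 to 46.2%) in Tsc1 RPE KO. This share does not depend on how the totals were scaled, but it moved with depth. In barcodes below the UMI minimum App was 69 of 134 family UMIs (51.5%, 42.7 to 60.2%) in Tsc1 RPE KO and 36 of 64 (56.25%, 43.3 to 68.6%) in Tsc1 flox, so the order of the libraries was turned round there.

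The BRI genes were close between the libraries or sparse in RPE-like cells. Itm2b had 84 UMIs and 700 CPM (558 to 867) in Tsc1 RPE KO, against 18 UMIs and 561 CPM (332 to 886) in Tsc1 flox, a ratio of 1.25 (0.744 to 2.21). Its level in these cells lies below its level in free RNA, 1129.7 CPM in Tsc1 RPE KO and 1047 CPM in Tsc1 flox. Itm2c had 13 UMIs and 108 CPM (57.7 to 185) in Tsc1 RPE KO, against 8 UMIs and 249 CPM (108 to 491) in Tsc1 flox, a ratio of 0.435 (0.167 to 1.21), with 4 of the 8 Tsc1 flox UMIs in a single cell. Its counts are under the minimum used for ratios below, and its direction turned with depth: in barcodes below the UMI minimum Itm2c had 12 UMIs in Tsc1 RPE KO and 2 in Tsc1 flox, and from 500 UMIs the ratio was 0.906 (0.417 to 2.12).

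The secretase members were sparse in RPE-like cells. Bace1 had 0 UMIs in both libraries, with upper bounds of 30.7 CPM in Tsc1 RPE KO and 115 CPM in Tsc1 flox. At this depth the zeros still allow a UMI in up to 6.52% of the 46 Tsc1 RPE KO cells and 25.0% of the 12 Tsc1 flox cells, and they set no limit on cells that express the gene. Ncstn had 2 UMIs in Tsc1 RPE KO and 0 in Tsc1 flox. Psenen had 26 UMIs and 217 CPM (142 to 318) in Tsc1 RPE KO, against 6 UMIs and 187 CPM (68.6 to 407) in Tsc1 flox, a ratio of 1.16 (0.467 to 3.44), close to its 208 and 204 CPM in free RNA. Of the 8 members, 3 (App, Aplp2 and Itm2b) reached 50 UMIs over both libraries, the minimum for being counted as measured. App and Aplp2 were at least 1.5-fold higher in Tsc1 RPE KO and 0 were 1.5-fold lower, where 19.7% of the 386 measured genes were higher and 11.1% lower. The members were chosen on this contrast, so the count is given without a reading.

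App differed far more between cell classes than between the libraries. Endothelial-like cells, the lining of the choroidal vessels, had 1095 CPM (949 to 1256, 49 cells) in Tsc1 RPE KO and 1493 CPM (1316 to 1686, 41 cells) in Tsc1 flox. Fibroblast-like cells, the stroma of choroid and sclera, had 563 CPM (437 UMIs) in Tsc1 RPE KO and 531 CPM (604 UMIs) in Tsc1 flox. Classical monocyte-like cells had 166 and 155 CPM and nonclassical monocyte-like cells 125 and 101 CPM in Tsc1 RPE KO and Tsc1 flox. In Tsc1 RPE KO, T cell-like cells had 9.94 CPM, rod-like cells 4.97 CPM, B cell-like cells 2.28 CPM and NK cell-like cells 0 CPM, and in Tsc1 flox these classes had 10.0, 0, 6.57 and 2.36 CPM, all far below the level in free RNA.

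Placed in that order, RPE-like cells had no fixed rank. Their 2 values, 1217 CPM in Tsc1 RPE KO and 312 CPM in Tsc1 flox, overlap the range of endothelial-like cells and span that of fibroblast-like cells. The values of endothelial-like, fibroblast-like, classical monocyte-like, nonclassical monocyte-like and T cell-like cells, taken over both libraries, do not overlap between neighbours, although the intervals of both monocyte classes do in Tsc1 flox. Rod-like, B cell-like and NK cell-like cells overlap one another, and of the 11 App UMIs of Tsc1 flox B cell-like cells 90.9% lay in 1 cell. Within the fibroblasts, the cluster led by Sfrp2 and Fmod had 816 CPM in Tsc1 RPE KO and 661 CPM in Tsc1 flox, and the cluster led by Edn3 and Serpine2 had 502 and 507 CPM.

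**Figure D3:**
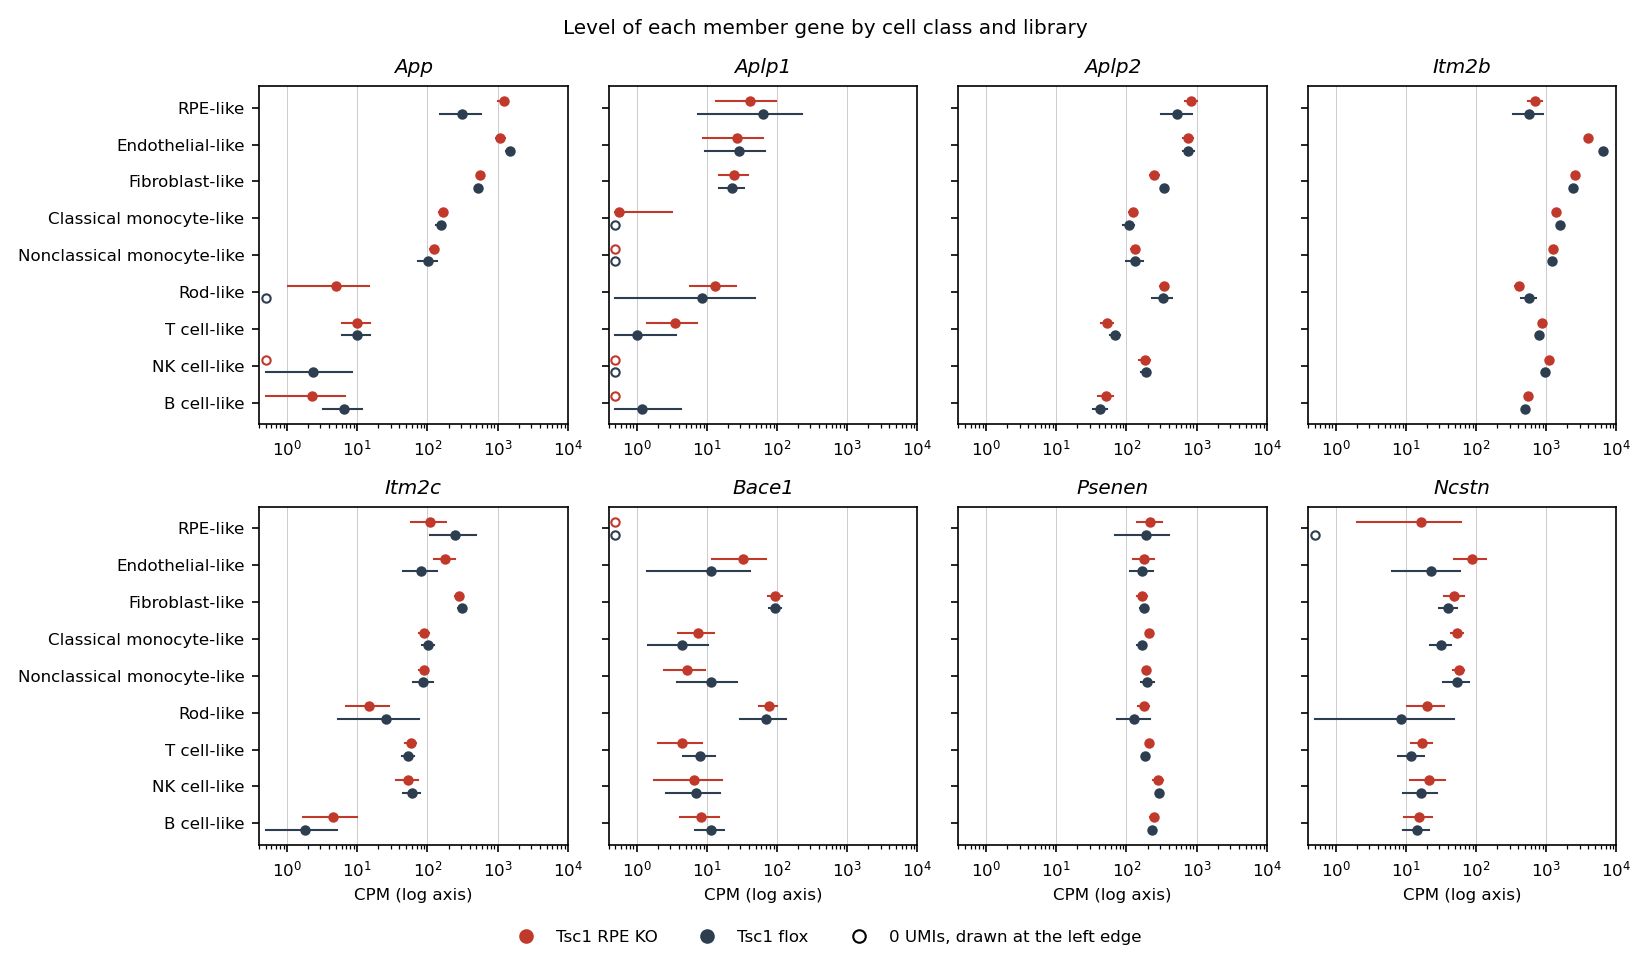
Level of each member (x axis, CPM on a log axis, with 95% Poisson intervals) by cell class (y axis), Tsc1 RPE KO in red above Tsc1 flox in dark blue. App is at 1095 CPM in endothelial-like and 0 CPM in NK cell-like cells of Tsc1 RPE KO and at 1493 and 2.36 CPM in those of Tsc1 flox, whereas Psenen stays within the same decade in every class.

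In the other 4 classes where App reached 50 UMIs, its ratio between the libraries lay closer to 1 than the 3.91 of RPE-like cells above the UMI minimum. It was 0.733 (0.607 to 0.885) in endothelial-like cells, where App counts per cell were 0, 3 and 16 (lowest, median, highest) in Tsc1 RPE KO and 1, 5 and 33 in Tsc1 flox. It was 1.06 (0.936 to 1.20) in fibroblast-like cells, 1.07 (0.884 to 1.30) in classical monocyte-like cells and 1.24 (0.894 to 1.75) in nonclassical monocyte-like cells. In the remaining 4 classes App had fewer than 50 UMIs and was not measured. Endothelial-like cells thus lay on the other side of 1 from RPE-like cells, with a difference that was not tested. Endothelial-like and rod-like cells, with fewer than 50 cells in a library, were added after their values had been seen.

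The share of App within its family divided the classes much as its level did. It was 67.2% in Tsc1 RPE KO and 59.3% in Tsc1 flox in fibroblast-like cells, 58.5% and 65.3% in endothelial-like cells, 57.5% and 59.2% in classical monocyte-like cells, and 48.6% and 43.6% in nonclassical monocyte-like cells. In lymphocytes and rods Aplp2 was the larger part, from 79.7% in T cell-like cells to 100% in NK cell-like cells of Tsc1 RPE KO and from 84.5% in B cell-like cells to 98.8% in NK cell-like cells of Tsc1 flox. In Tsc1 RPE KO App was 15.0% in T cell-like, 4.29% in B cell-like, 1.36% in rod-like and 0% in NK cell-like cells, and in Tsc1 flox it was 12.6%, 13.1%, 0% and 1.24% in these classes.

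**Figure D4:**
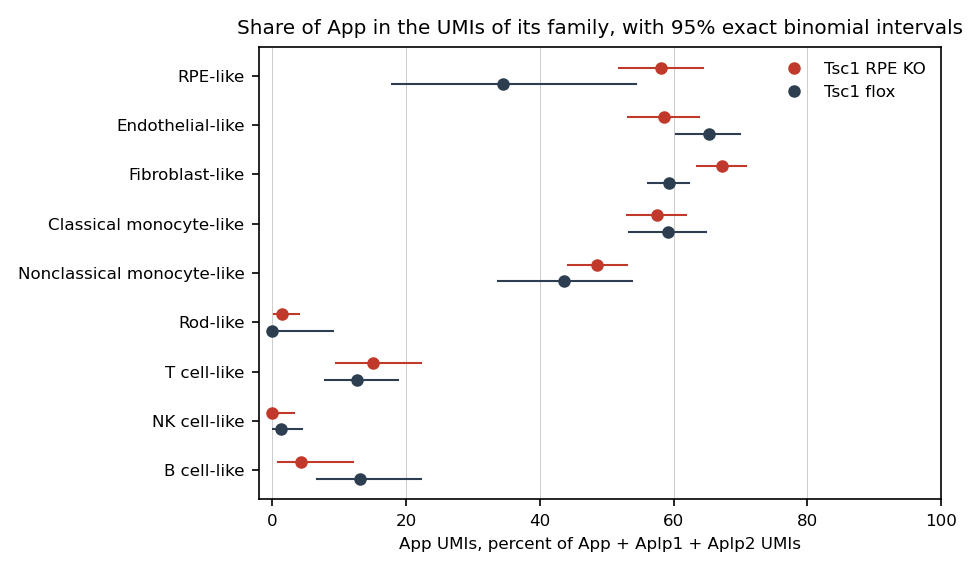
App UMIs as a percentage of App, Aplp1 and Aplp2 UMIs (x axis) by cell class (y axis), Tsc1 RPE KO in red above Tsc1 flox in dark blue, with 95% exact binomial intervals. RPE-like cells are at 58.2% in Tsc1 RPE KO and 34.5% in Tsc1 flox with overlapping intervals, and rod-like and NK cell-like cells are near 0.

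Aplp2 followed another order. It was highest in RPE-like cells of Tsc1 RPE KO (833 CPM) and in endothelial-like cells, with 749.6 and 764 CPM in Tsc1 RPE KO and Tsc1 flox, which do not differ beyond their intervals from RPE-like cells. Rod-like cells, which had almost no App, had 346 CPM of Aplp2 in Tsc1 RPE KO and 328 CPM in Tsc1 flox, and fibroblast-like cells had 249.8 CPM in Tsc1 RPE KO and 342 CPM in Tsc1 flox. In Tsc1 RPE KO, NK cell-like cells had 181 CPM, nonclassical monocyte-like cells 133, classical monocyte-like cells 123, T cell-like cells 52.7 and B cell-like cells 50.9 CPM. In Tsc1 flox these classes had 187, 131, 107, 68.5 and 42.4 CPM, so the intervals of the monocyte classes overlapped in both libraries. Those of T and B cell-like cells overlapped in Tsc1 RPE KO and not in Tsc1 flox, with 57.5 to 81.0 CPM for T and 33.1 to 53.5 CPM for B cell-like cells. The ratio of Aplp2 was 0.731 (0.612 to 0.871) in fibroblast-like cells and 0.769 (0.591 to 0.998) in T cell-like cells, and its interval included 1 in the other 6 classes besides RPE-like cells.

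Itm2b was abundant in every class and stood lower in RPE-like cells than in most others. Endothelial-like cells had 3969 CPM (3687 to 4266) in Tsc1 RPE KO and 6381 CPM (6009.9 to 6769) in Tsc1 flox, a ratio of 0.622 (0.566 to 0.683), or 1.61-fold lower in Tsc1 RPE KO. In Tsc1 RPE KO, fibroblast-like cells had 2559 CPM, classical monocyte-like cells 1364, nonclassical monocyte-like cells 1239.7, NK cell-like cells 1088 and T cell-like cells 859.5 CPM, and in Tsc1 flox these classes had 2407, 1565, 1221, 971 and 783 CPM. The values of both libraries do not overlap between neighbours among these 6 classes, whereas the interval of nonclassical monocyte-like cells in Tsc1 flox, 1119.6 to 1329.9 CPM, overlaps those of classical monocyte-like and NK cell-like cells in Tsc1 RPE KO. RPE-like cells came next by value, but their intervals overlap those of T cell-like cells in both libraries. These were 558 to 867 CPM against 819 to 901 CPM in Tsc1 RPE KO, and 332 to 886 CPM against 744 to 822 CPM in Tsc1 flox. B cell-like cells had 559 CPM in Tsc1 RPE KO and 499 CPM in Tsc1 flox, and rod-like cells 407 and 569.8 CPM. RPE-like, B cell-like and rod-like cells overlap in their values or intervals.

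**Figure D5:**
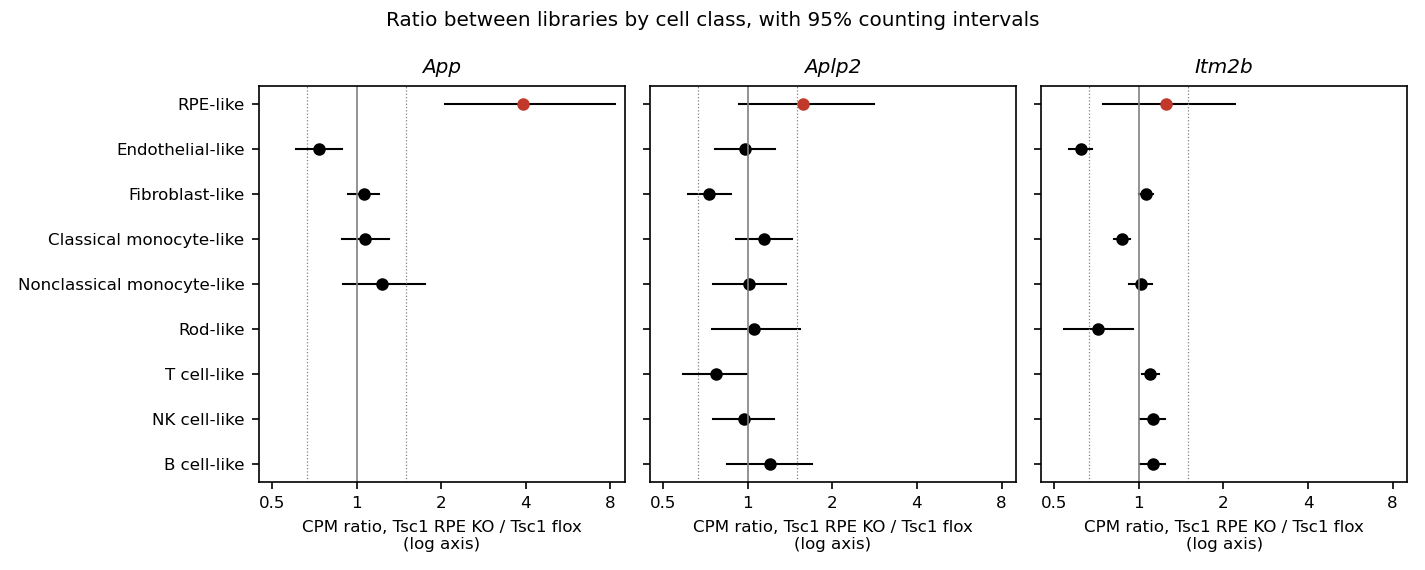
Ratio of Tsc1 RPE KO to Tsc1 flox CPM (x axis, log axis) of App, Aplp2 and Itm2b by cell class (y axis) with 95% counting intervals, for classes with at least 50 UMIs of the gene. Solid lines mark 1 and dotted lines 1.5-fold, and App stands at 3.91 in RPE-like cells (red) and at 0.733 in endothelial-like cells.

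Of the 9 classes, Itm2c was highest in fibroblast-like cells, with 283 CPM in Tsc1 RPE KO and 308 CPM in Tsc1 flox, and lowest in B cell-like cells, with 4.56 and 1.79 CPM. Bace1 was seen mainly in fibroblast-like cells, with 94.0 CPM in Tsc1 RPE KO and 93.1 CPM in Tsc1 flox, and in rod-like cells, which are neurons, with 76.2 CPM in Tsc1 RPE KO and 69.1 CPM in Tsc1 flox. Its free RNA had 23.0 CPM in Tsc1 RPE KO and 21.8 CPM in Tsc1 flox. Psenen lay between 167 and 281 CPM in the 8 classes other than RPE-like cells in Tsc1 RPE KO and between 129.5 and 295 CPM in Tsc1 flox. Aplp1 reached at most 27.0 CPM in Tsc1 RPE KO and 28.9 CPM in Tsc1 flox in those classes, both in endothelial-like cells. Ncstn had 54.0 CPM in Tsc1 RPE KO and 31.3 CPM in Tsc1 flox in classical monocyte-like cells, a ratio of 1.73 (1.16 to 2.62). In nonclassical monocyte-like cells it had 56.7 and 53.0 CPM, a ratio of 1.07 (0.678 to 1.76). Its interval also included 1 in fibroblast-like and T cell-like cells. Endothelial-like cells had 16 Ncstn UMIs (86.3 CPM) in Tsc1 RPE KO and 4 (23.1 CPM) in Tsc1 flox, too few to be measured.

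Few members passed 1.5-fold outside the RPE. In endothelial-like cells 4 of 8 members were measured and 1, Itm2b, was lower, where 9.02% of measured genes were lower and 7.36% higher. In classical monocyte-like cells 6 were measured and 1, Ncstn, was higher, where 7.67% of measured genes were higher and 5.40% lower. None of the 7 measured members passed in fibroblast-like cells (3.99% of genes higher, 6.91% lower), none of 6 in nonclassical monocyte-like cells (11.4% higher, 6.59% lower) and none of 5 in T cell-like cells (4.48% higher, 2.29% lower). The same held for the 4 measured members in NK cell-like cells (3.59% higher, 5.54% lower), the 4 in rod-like cells (17.0% higher, 6.38% lower) and the 3 in B cell-like cells (2.61% higher, 4.19% lower). At these backgrounds 0 or 1 of a few genes is near what all genes showed.

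Of 37 further genes of the amyloid pathway, 6 were measured in RPE-like cells, 0 were 1.5-fold higher and 2 were lower, where 19.7% of the 386 measured genes were higher and 11.1% lower. Their median log2 ratio was −0.11, against 0.04 over all measured genes. Cst3, which encodes cystatin C, a secreted protein that binds amyloid beta, had 30804 CPM in Tsc1 RPE KO and 47361 CPM in Tsc1 flox, a ratio of 0.650 (0.613 to 0.691). Lrp1, a receptor that takes up the precursor and amyloid beta, had 383 CPM in Tsc1 RPE KO and 654 CPM in Tsc1 flox, a ratio of 0.586 (0.343 to 1.03). The carriers Apoe and Clu had ratios of 0.850 (0.752 to 0.962) and 1.10 (0.943 to 1.28), Ttr had 1.02 (0.977 to 1.06), and Tmed10, a trafficking protein that binds gamma-secretase, had 1.07 (0.526 to 2.40). None of the secretase genes of the list was measured there: Bace2 had 18 UMIs in Tsc1 RPE KO and 3 in Tsc1 flox, and Adam10, an alpha-secretase, had 9 UMIs in Tsc1 RPE KO and 2 in Tsc1 flox. Sorl1, a sorting receptor for the precursor, had 28 UMIs in Tsc1 RPE KO and 2 in Tsc1 flox.

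In most other classes some of these pathway genes passed 1.5-fold. Endothelial-like cells had 10 of the 37 measured, with Itm2a, the other BRI gene (339.7 CPM in Tsc1 RPE KO, 515 CPM in Tsc1 flox) and Numb, an endocytic adaptor, lower, and 0 higher, where 7.36% of all measured genes were higher and 9.02% lower. Fibroblast-like cells had 26 measured, 0 higher and 1 lower, where 3.99% were higher and 6.91% lower. B cell-like cells had 14 measured, 1 higher and 2 lower, where 2.61% were higher and 4.19% lower. The lower genes were Adam10, at 50.9 CPM in Tsc1 RPE KO and 86.6 CPM in Tsc1 flox, and Adam17, at 24.3 and 40.6 CPM. T cell-like cells had 18 measured, 2 higher and 1 lower, where 4.48% were higher and 2.29% lower. NK cell-like cells had 13 measured, 0 higher and 0 lower, where 3.59% were higher and 5.54% lower. Rod-like cells had 5 measured, 0 higher and 0 lower, where 17.0% were higher and 6.38% lower. Classical monocyte-like cells had 23 measured, 1 higher and 4 lower, where 7.67% were higher and 5.40% lower. Nonclassical monocyte-like cells had 19 measured, 1 higher and 2 lower, where 11.4% were higher and 6.59% lower. Among the lower was Apoe, with 2574 CPM in Tsc1 RPE KO and 5441 CPM in Tsc1 flox, a ratio of 0.473.

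The genes most like App across classes were found by Pearson correlation of log2(CPM + 10) over 14 points, 7 classes in 2 libraries, among 7770 genes with at least 200 UMIs. They included Ctnnbip1 (r = 0.967), Phactr2 (0.962), Slc6a6 (0.960) and Pkdcc (0.954). The points share libraries, free RNA and the same few high classes, so these values describe a pattern. Slc6a6, which encodes the taurine transporter, had 37 UMIs in Tsc1 RPE KO and 11 in Tsc1 flox in RPE-like cells, a ratio of 0.900. With endothelial-like and rod-like cells added, over 18 points, the genes most like App included Laptm4a, Scarb2, Hexa and Epha4, which were not among those named above. Aplp2 was most like Emc4 (0.978) and Uqcc2 (0.962), and Itm2b was most like Bag3 (0.967) and Rarg (0.955).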

How the data were processed

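The authors deposited unfiltered raw UMI counts for each gene and barcode. Per the submitters' processing notes they used Cell Ranger 2.1.1 and mm10, and per the file headers Cell Ranger 4. Groups were taken from the genotype labels. Cells were barcodes with UMIs above 10% of percentile 99 among the top 3000 barcodes, at least 200 genes and at most 20% mitochondrial UMIs. Scrublet (scanpy 1.11.5) removed 19 doublets in Tsc1 RPE KO and 8 in Tsc1 flox. Counts were normalized per cell, and 2000 variable genes, 30 principal components and 20 neighbours were clustered (leidenalg 0.10.2, resolution 1) into 19 clusters.

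A cluster took a class name from at least 3 markers seen in 10% of its cells and 2-fold above other clusters. UMIs were summed per class and library, and intervals were computed with scipy 1.17.1. The coverage of the ratio interval was checked on simulated Poisson counts, the model that the interval assumes. This check cannot show its coverage where UMIs gather in single cells. A gene was measured with at least 50 UMIs over both libraries. The matrices held 12574364 UMIs in Tsc1 RPE KO and 10771118 in Tsc1 flox. Without replicates there was no test. Coordinates came from GENCODE M21, which held 32158 of the 32285 identifiers, and promoters from RefSeq (GRCm38.p6).

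Named genes were the 8 members, up to 4 genes with most UMIs per pathway sublist and the 5 genes most like App, Aplp2 and Itm2b. The RPE markers were named after their values had been seen. Results of some genes of these lists are not reported here. The members and lists were chosen with earlier results of these data known. Alternatives changed the UMI minimum, mixed barcodes, totals, weights, free RNA, clustering genes and resolution.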

Additional observations from a re-analysis of the deposited data

Results flagged for a closer look

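App had a ratio of 3.91 between Tsc1 RPE KO and Tsc1 flox in RPE-like cells (95% counting interval 2.06 to 8.32) and of 0.733 in endothelial-like cells (0.607 to 0.885), on opposite sides of 1 between the same 2 libraries. The difference between these classes was not tested, because each genotype was 1 library. App in RPE-like cells was the value on which the members were chosen, and endothelial-like cells were added after their values had been seen. The pair is therefore given as a description. The ratio was 1.22 in RPE-like barcodes that lay under the minimum of UMIs (0.803 to 1.88).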

How the results depend on the processing

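The App ratio of 3.91 in RPE-like cells moved to 1.76 with barcodes of at least 500 UMIs, to 1.87 when mixed barcodes were also left out, and to 1.22 in the barcodes between 500 UMIs and the minimum. It lay between 2.27 and 4.42 under the other 10 alternatives, with 2.30 after thinning and 2.27 from 1000 UMIs, and above 1 in all 13. Its interval included 1 after thinning and in the barcodes below the minimum. Several alternatives reuse the same 12 Tsc1 flox cells and 10 App UMIs, so they are not separate checks. App was also chosen on this contrast, so a ratio that stays above 1 is a description only. The number of members at least 1.5-fold higher, 2, became 1 from 1000 UMIs and from 500 UMIs, where App remained, and 1 below the minimum, where App lost the call and Aplp2 (1.54) kept it. Among these 13 alternatives Aplp2 ranged between 1.45 and 2.40. Itm2b ranged between 0.841 and 1.28 and was below 1 after thinning and below the minimum. The causes were not tested. At resolution 2, which drew the classical monocyte-like class differently, its App ratio was 1.32 instead of 1.07, and the other 38 ratios outside the RPE stayed within the counting interval of the reported value. Thinning to 1000 UMIs lowered or left within its interval the share of cells with a UMI. The 12 Tsc1 flox RPE-like cells, with 10 App UMIs, limit every RPE value. No paired analysis was possible because each genotype was 1 library, and for the same reason no replicate could be left out.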

Other observations

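Plasmacytoid dendritic-like cells, 18 in each library, held 6 App UMIs (33.4 CPM) in Tsc1 RPE KO and 28 (126 CPM) in Tsc1 flox. These UMIs lay in 5 cells of Tsc1 RPE KO and 8 of Tsc1 flox. Over both libraries they were under the minimum for being counted as measured. The ratio of 0.264 (95% counting interval 0.0894 to 0.650) is therefore given as a description only. Pericyte or smooth muscle-like cells, 6 in Tsc1 RPE KO and 9 in Tsc1 flox, held 14 and 17 App UMIs, also under that minimum. Their levels were 633 CPM (346 to 1062) in Tsc1 RPE KO and 465 CPM (271 to 744) in Tsc1 flox. Both intervals include the fibroblast-like value of the same library, 563 and 531 CPM. The interval overlapped that of endothelial-like cells in Tsc1 RPE KO (949 to 1256 CPM) and lay below it in Tsc1 flox (1316 to 1686 CPM). Mast cell-like cells, 11 in Tsc1 RPE KO and 13 in Tsc1 flox, had 0 App UMIs in both libraries but 3253 CPM of Itm2b in Tsc1 RPE KO and 2789 CPM in Tsc1 flox.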
